A study of Mus musculus with 11 samples.

Results

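The genes described here encode the enzymes that make, use and regenerate the thiol antioxidants glutathione and thioredoxin, the enzymes that remove superoxide and peroxide, and the NRF2-KEAP1 pair that regulates many of them. The set is a fixed list of 47 gene symbols, chosen by function but with earlier results of these data known. All 47 were found by symbol among the 54347 genes of the count table. A filter on low counts kept 14915 genes for testing and 46 of the 47, with Gpx8 as the exception.

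RNA was sequenced from bone marrow cells of 4 female C57BL/6NTac mice, whose ages are not given in the sources used here. After depletion of lineage-positive cells, long-term haematopoietic stem cells (LT-HSCs, CD150+ CD48- cells with Sca-1 and c-Kit and no lineage marker) were sorted into cells with (EMCN+) and without (EMCN-) surface endomucin. GMPs, the progenitors of granulocytes and monocytes, were sorted as a differentiated comparison. No group carried an engineered allele or received a treatment in the labels. EMCN+ LT-HSCs gave 4 libraries, EMCN- LT-HSCs 3 and GMPs 4, numbered by mouse, and mouse 3 has no EMCN- library because the submitters removed 1 for poor quality. The data are messenger RNA levels, so protein amounts, enzyme activities and oxidant levels were not measured.

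Glutathione is a small peptide whose cysteine donates electrons. Glutathione peroxidases spend it on peroxides, glutathione transferases attach it to electrophiles, and glutathione reductase restores it with NADPH. Thioredoxins do parallel work through protein thiols, feed the peroxiredoxins and are restored by thioredoxin reductases. NRF2 is a transcription factor that KEAP1 marks for degradation until oxidants or electrophiles modify KEAP1. Haematopoietic stem cells are known for a low content of reactive oxygen species, while granulocyte precursors make the enzymes of the oxidative burst.

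Of the 47 genes, 5 encode selenoproteins, in which a UGA codon that usually ends translation is read as selenocysteine, the residue at the active centre. Their codons are printed because these 5 genes, which share the same unusual chemistry, lay on both sides of the LT-HSC versus GMP comparison. Each line gives the coding strand around the codon from GRCm38 with GENCODE M21, with the selenocysteine codon in capitals.
Gpx1: gtcgcgtctctcTGAggcacc
Gpx3: gtagccagctacTGAggtctg
Gpx4: gtggcctcgcaaTGAggcaaa
Txnrd1: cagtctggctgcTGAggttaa
Txnrd2: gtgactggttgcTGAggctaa
In the peroxidases the codon lay inside the reading frame, at codon 47 of Gpx1, 73 of Gpx3 and 129 of the Gpx4 transcript used. In Txnrd1 and Txnrd2 it was followed by a single codon and the stop codon taa, so that selenocysteine was the second-to-last residue. Gpx1, Gpx3 and Gpx4 were lower in LT-HSCs than in GMPs, and Txnrd1 and Txnrd2 were higher, as described below with their values.

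NRF2 binds, with small MAF proteins, a short element whose core can be written TGACNNNGC. RefSeq promoter windows on GRCm38.p6, from 250 bases before to 50 after a start site, were found for 41 of the 47 genes. The core was searched on both strands, with GCNNNGTCA as its reverse, and was present for 9 of the 41 genes (22.0%) and for 3781 of 27025 symbols in all (14.0%). A symbol can have several windows. Counted by window, the core was present in 9 of 55 for the set (16.4%) and in 4071 of 32851 in all (12.4%). The same core overlaps AP-1 sites, and a match is a string of letters, not a measured binding site. These lines show matches, in capitals on the strand of the gene, for 3 genes higher and 2 genes lower in LT-HSCs than in GMPs.
Srxn1: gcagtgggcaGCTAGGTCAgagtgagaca
Txnrd1: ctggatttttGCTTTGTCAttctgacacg
Gstm5: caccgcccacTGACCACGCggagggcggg
Mgst1: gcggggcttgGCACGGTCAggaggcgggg
Prdx1: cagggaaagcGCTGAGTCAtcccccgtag
They lie at chr2:152105542-152105570 (Srxn1), chr10:82859104-82859132 (Txnrd1), chr3:107895802-107895830 (Gstm5), chr6:138140461-138140489 (Mgst1) and chr4:116685456-116685484 (Prdx1), all on genes of the plus strand. The other 4 genes with a match were G6pdx, Gclm, Nfe2l2 and Sod1. Genes that hold the core were therefore present in both directions of the LT-HSC versus GMP comparison.

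Levels are given as CPM (counts per 1e6 counts), scaled with the trimmed mean of M values (TMM), which sets the bulk of genes equal between libraries. Totals ranged from 3.63 to 11.1 M estimated counts per library (M for 1e6), so that 1 count was worth 0.0695 to 0.234 CPM. The labelled populations carried their markers. All 10 LT-HSC markers (among them Procr, Hlf and Mecom) were higher in LT-HSCs than in GMPs, with sums of 1230 to 1450 CPM in EMCN+, 846 to 984 CPM in EMCN- and 28.4 to 32.1 CPM in GMP libraries. All 10 GMP markers (among them Mpo and Elane) were lower in LT-HSCs, with sums of 26.2 to 32.7, 23.2 to 32.6 and 15800 to 19000 CPM. In bulk RNA of this kind, fewer cells of a type and less RNA per cell cannot be told apart.

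Compared per length, as CPM per kb of exon, Gpx1 was the most abundant of the 47 genes in all 3 populations. Gpx1, which reduces hydrogen peroxide in the cytosol, had a mean level of 226 CPM per kb in EMCN+ LT-HSCs, 317 in EMCN- LT-HSCs and 1446 in GMPs. Sod1, the cytosolic superoxide dismutase, came second (184, 205 and 253 CPM per kb), and Gpx4, which reduces lipid peroxides in membranes, came next (60.0, 66.3 and 171). Below these the order differed between stem cells and progenitors. Gsr, glutathione reductase, held rank 19 of 47 in both LT-HSC fractions and rank 7 in GMPs. In CPM, not divided by length, the 47 genes summed to 1749 ± 109 CPM in EMCN+ LT-HSCs (SD, n = 4), 1969 ± 153 in EMCN- LT-HSCs (n = 3) and 4314 ± 137 in GMPs (n = 4). Gpx1 alone made up 13.8%, 17.1% and 35.9% of those sums. The levels and sums rest on TMM scaling. Scaling by total counts, which moved the median LT-HSC change over GMPs up by 0.781 on the log2 scale, narrows the gap between the sums.

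**Figure D1:**
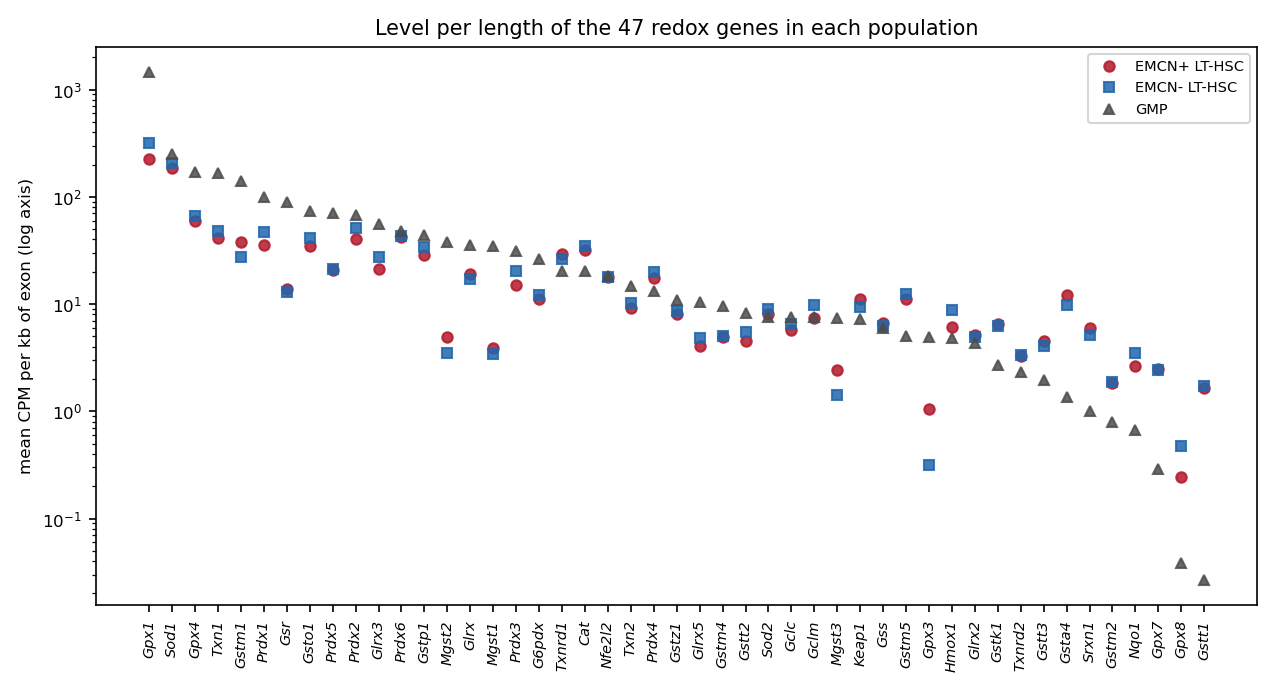
Mean level of each of the 47 genes in CPM per kb of exon (log axis) in EMCN+ LT-HSCs (circles), EMCN- LT-HSCs (squares) and GMPs (triangles), with genes ordered by their level in GMPs. Gpx1 is the highest point in every population, and the triangles run from above the stem cell symbols on the left to below them on the right.

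LT-HSCs and GMPs were compared to ask how the redox enzymes of stem cells differ from those of a more differentiated progenitor. Of the 46 tested genes 15 were higher and 24 lower in LT-HSCs (edgeR quasi-likelihood test, Benjamini-Hochberg adjusted p of at most 0.05), which is 84.8% called. Over all genes tested 62.5% were called, 32.5% higher and 29.9% lower, so that the difference between these populations was broad. The median log2 change was -0.38 for the 46 genes and 0.03 for all tested genes. Changes of more than 2-fold were called higher for 9 and lower for 14 of the 46, against 19.6% and 16.8% of all genes. Every LT-HSC library lay above every GMP library for 11 of the 46 genes and below for 22, against 25.0% and 23.1% of all genes. The groups below follow the enzymes' roles.

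The balance of higher and lower depended on the scaling. TMM factors were 1.1 to 1.31 for LT-HSC and 0.668 to 0.757 for GMP libraries, and scaling by total counts alone moved the median change of all genes by 0.781 on the log2 scale. With total counts 24 of the 46 genes were higher and 14 lower, against 60.8% and 12.8% of all genes. All 15 genes called higher with TMM were called higher on both scales. Total counts raise LT-HSC values relative to GMPs, so this is no separate check of those calls. Of the 24 lower genes, 14 were lower on both. Those 14 were Mgst1, Mgst2, Mgst3, Gstm1, Gpx1, Gpx3, Gpx4, Prdx1, Prdx5, Txn1, Gsr, G6pdx, Glrx3 and Glrx5. Of the other 10, Sod1 and Gclc were called higher with total counts and 8 were not called. The 7 genes not called with TMM (Gstz1, Prdx6, Sod2, Gclm, Gss, Glrx2 and Nfe2l2) were all called higher with total counts. Counts and fold changes below are those with TMM, and a gene named as higher or lower has the same call on both scales unless it is said to depend on the scaling.

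**Figure D2:**
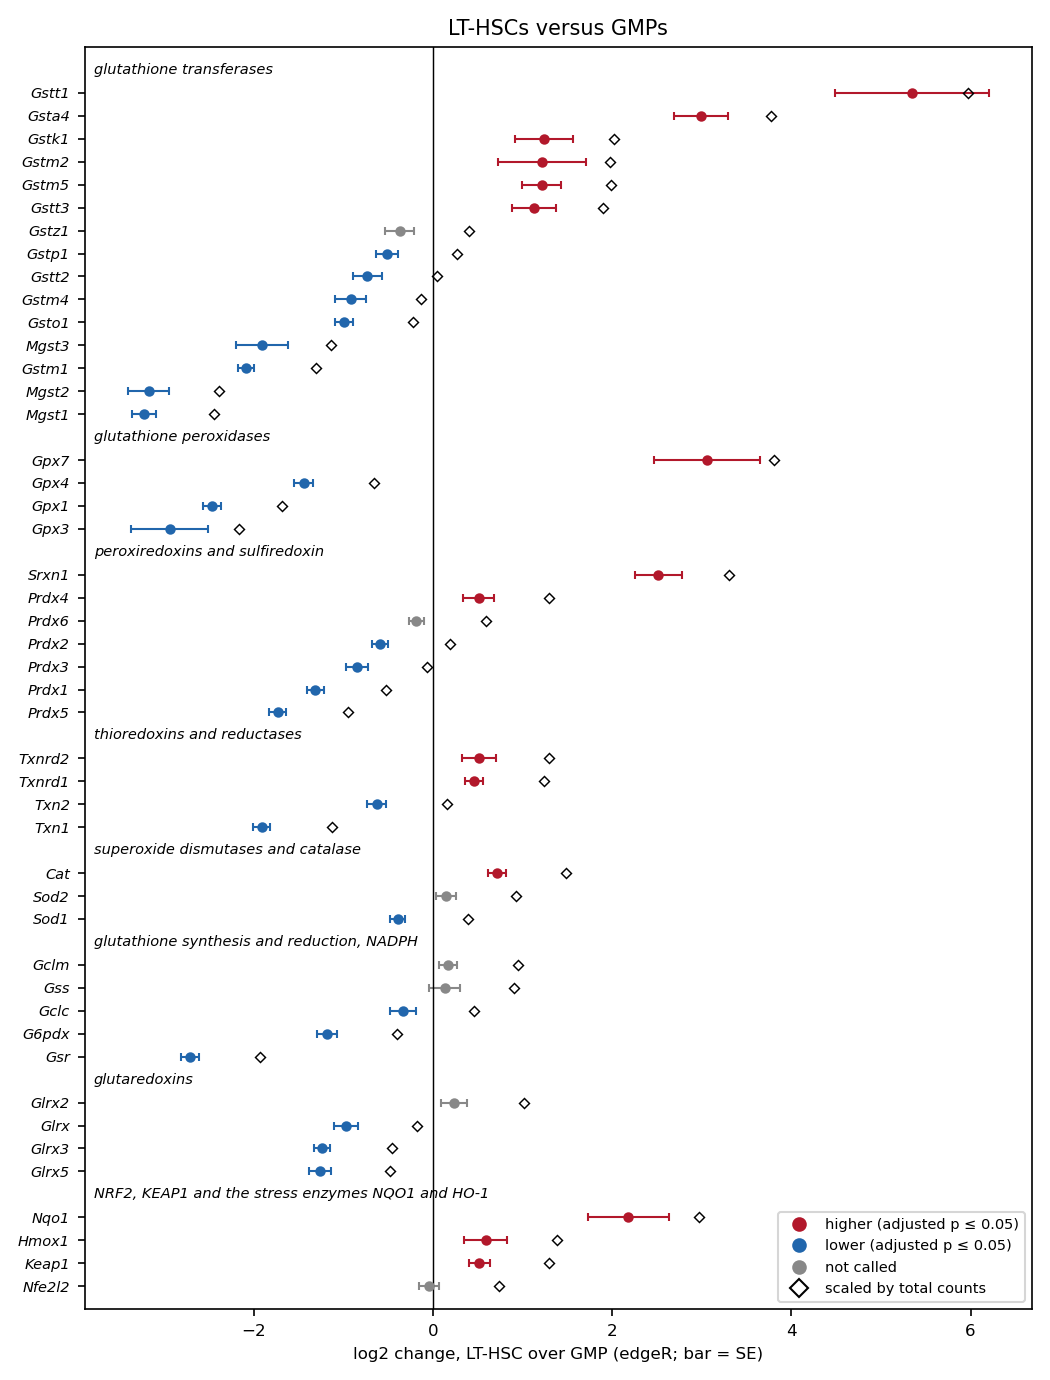
Log2 change of LT-HSCs over GMPs for the 46 tested genes by role, with TMM scaling (filled points, bars are SE) and with scaling by total counts (open diamonds). Mgst1 (-3.22), Mgst2 (-3.17), Gpx3 (-2.94) and Gsr (-2.71) lie lowest, and Gpx7 (3.06), Gsta4 (2.99) and Gstt1, which has 1 count in GMPs, highest; the diamonds sit to the right of the points, and those of Gstp1, Gstt2, Gstz1, Prdx2, Prdx6, Txn2, Sod1, Gclc and Nfe2l2 cross the zero line.

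The glutathione transferases lay on both sides. Of 15 tested, 6 were higher and 8 lower in LT-HSCs with TMM (7 and 4 with total counts), and Gstz1, the maleylacetoacetate isomerase, was not called (log2 change -0.37, adjusted p = 0.0567 by edgeR, and called higher with total counts). The membrane-bound enzymes of the MAPEG family, Mgst1, Mgst2 and Mgst3, were all lower. Mgst1, which sits in the endoplasmic reticulum and outer mitochondrial membrane, measured 5.33, 7.44, 8.88 and 7.01 CPM in EMCN+ libraries 1 to 4, 5.64, 6.12 and 7.26 CPM in EMCN- libraries 1, 2 and 4, and 59.1, 66.1, 70.9 and 57.5 CPM in GMP libraries 1 to 4. All 7 stem cell libraries were thus well below all 4 progenitor libraries, by 9.32-fold (log2 change -3.22 ± 0.13 SE, adjusted p = 2.28e-14).

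Mgst2, which can join glutathione to leukotriene A4, measured 2.07, 2.71, 2.55 and 4.67 CPM in EMCN+, 1.52, 1.93 and 2.81 CPM in EMCN- and 16.4, 29.3, 24.5 and 20.3 CPM in GMP libraries. The groups did not overlap, and LT-HSCs were 9.03-fold lower (adjusted p = 1.81e-10). Mgst3 was low in every population, at 2.77, 1.95, 3.67 and 2.34 CPM in EMCN+, 1.52, 1.93 and 1.17 CPM in EMCN- and 7.87, 6.03, 10.2 and 8.19 CPM in GMP libraries. Its LT-HSC level was 3.76-fold lower (adjusted p = 7.66e-06), again with no overlap.

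Among the cytosolic enzymes, Gsta4, an alpha-class transferase known for conjugating the lipid peroxidation product 4-hydroxynonenal, went the other way. It measured 11.9, 10.9, 13.4 and 10.9 CPM in EMCN+, 8.84, 11.9 and 7.73 CPM in EMCN- and 2.05, 1.14, 1.59 and 0.559 CPM in GMP libraries. LT-HSCs were 7.95-fold higher (log2 change 2.99 ± 0.30, adjusted p = 1.92e-08) with no overlap.

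The mu-class genes of the set lie in one region of chromosome 3 of GRCm38. Gstm5 (107895821 to 107898686) is on the plus strand. Gstm2 (107981702 to 107986453), Gstm1 (108012255 to 108017973) and Gstm4 (108040408 to 108044894) follow on the minus strand. Genes of this region differed in opposite directions, Gstm5 and Gstm1 on both scales. Gstm1 was the most abundant of them, with 47.5, 56.0, 54.2 and 49.5 CPM in EMCN+, 38.6, 40.7 and 32.8 CPM in EMCN- and 215, 202, 180.2 and 172 CPM in GMP libraries, 4.25-fold lower in LT-HSCs (adjusted p = 4.98e-14). Gstm5 measured 10.96, 9.32, 14.3 and 10.1 CPM in EMCN+, 14.6, 12.2 and 9.84 CPM in EMCN- and 4.88, 4.72, 4.32 and 6.15 CPM in GMP libraries, 2.32-fold higher in LT-HSCs (adjusted p = 4.41e-05). Both genes had no overlap between stem cell and progenitor libraries.

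The remaining mu-class members were less secure. Gstm2 was low and its groups overlapped, with 2.67, 2.57, 1.78 and 1.75 CPM in EMCN+, 1.22, 2.90 and 2.58 CPM in EMCN- and 1.42, 0.489, 1.14 and 0.745 CPM in GMP libraries. Its 2.32-fold higher level (adjusted p = 0.0383) lost its call in 9 of 18 alternative analyses, where the adjusted p reached 0.117, among them those without EMCN+ libraries 1 or 2, EMCN- libraries 2 or 4 and GMP libraries 2, 3 or 4. With mouse as a block its adjusted p was 0.0625. Gstm4 was 1.89-fold lower (8.46, 8.62 and 16.2 mean CPM in EMCN+, EMCN- and GMP) and was not called with total counts (adjusted p = 0.523). Gstm1 shared 28.8% and Gstm2 12.2% of their 31-base stretches with other genes, so that Salmon had to divide some reads. The closest relative of Gstm1 by this measure, Gstm2-ps1, had at most 0.0814 mean CPM in any population.

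The theta-class cluster on chromosome 10 (Gstt3 at 75774115 to 75781414, Gstt1 at 75783813 to 75798584 and Gstt2 at 75831114 to 75837424, all on the minus strand) held the sharpest presence and absence. Gstt1 measured 1.98, 3.62, 3.33 and 0.779 CPM in EMCN+ and 2.75, 2.09 and 2.81 CPM in EMCN- libraries. In GMPs a single count (0.157 CPM) was seen in library 1 and none in the other 3, against 149 counts in the LT-HSC libraries. That is a ratio of 59.6 with an exact 95% interval of 10.5 to 2370 for counting error alone. Gstt3 was 2.18-fold higher in LT-HSCs (8.54, 7.68 and 3.72 mean CPM in EMCN+, EMCN- and GMP, adjusted p = 3.98e-04). Gstt2 was 1.66-fold lower with TMM (10.3, 12.5 and 18.7 mean CPM, adjusted p = 5.26e-04) and had a log2 change of 0.05 with total counts.

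Of the other transferases, Gstk1, the mitochondrial and peroxisomal kappa-class enzyme, was 2.37-fold higher in LT-HSCs (adjusted p = 0.00233). Its libraries measured 4.64, 6.54, 9.33 and 3.70 CPM in EMCN+, 4.73, 8.05 and 4.68 CPM in EMCN- and 1.89, 2.77, 2.50 and 2.98 CPM in GMPs, with no overlap. Gsto1, the omega-class thiol transferase (40.8, 48.4 and 87.4 mean CPM in EMCN+, EMCN- and GMP), and Gstp1, the pi-class enzyme (23.5, 27.8 and 36.2), were 1.99-fold and 1.42-fold lower with TMM. Neither was called with total counts, where the log2 change of Gstp1 was 0.27. Gstp1 shared 38.5% of its 31-base stretches with other genes, mainly its copy Gstp2, which had at most 0.640 mean CPM.

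As shares of the summed CPM per kb of the 15 transferases, which no scaling between libraries can change, Gstm1 took 22.6% in EMCN+ LT-HSCs (21.1 to 24.9% over 4 libraries), 16.5% in EMCN- LT-HSCs (16.3 to 16.8% over 3) and 37.1% in GMPs (34.7 to 39.3% over 4). Gsta4 took 7.21%, 5.84% and 0.356% and Mgst1 2.31%, 2.12% and 9.14% in the same order. The transferase mixture therefore differed in composition between LT-HSCs and GMPs.

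The glutathione peroxidases were dominated by Gpx1. Of 4 tested, 1 was higher in LT-HSCs (Gpx7) and 3 were lower. Gpx1 (chromosome 9, 108338903 to 108340343, plus strand) measured 260.4, 224, 278 and 207 CPM in EMCN+, 411, 331 and 276 CPM in EMCN- and 1551, 1539, 1685 and 1428 CPM in GMP libraries. The highest stem cell library was far below the lowest progenitor library, and the change was 5.53-fold lower (log2 change -2.47 ± 0.10, adjusted p = 2.98e-14). Its share of the peroxidases' CPM per kb was 78.0% in EMCN+ LT-HSCs (76.2 to 80.2%), 81.9% in EMCN- LT-HSCs (80.7 to 82.6%) and 89.1% in GMPs (88.0 to 89.9%). Gpx4 was 2.72-fold lower in LT-HSCs (76.4, 84.4 and 218 mean CPM in EMCN+, EMCN- and GMP, adjusted p = 1.28e-10). It shared 38.9% of its 31-base stretches with other genes, mainly the pseudogene Gpx4-ps2, whose own level was 2.51, 3.97 and 13.1 mean CPM.

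The minor peroxidases diverged. Gpx3, the secreted plasma form, measured 1.19, 1.67, 1.55 and 2.34 CPM in EMCN+, 0, 1.29 and 0.234 CPM in EMCN- and 7.40, 8.47, 8.86 and 6.89 CPM in GMP libraries, 7.68-fold lower in LT-HSCs (adjusted p = 4.42e-06). Gpx7, an endoplasmic reticulum peroxidase with cysteine in place of selenocysteine, was higher. It measured 2.47, 2.92, 4.44 and 2.92 CPM in EMCN+, 2.13, 4.35 and 2.81 CPM in EMCN- and 0, 0.651, 0.454 and 0.372 CPM in GMP libraries (fitted change 8.34-fold, adjusted p = 1.35e-04). Gpx8, its relative in the same compartment, was below the filter, with 18 counts in all LT-HSC libraries and 1 count in all GMP libraries (ratio 7.2, exact 95% counting interval 1.14 to 300).

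**Figure D3:**
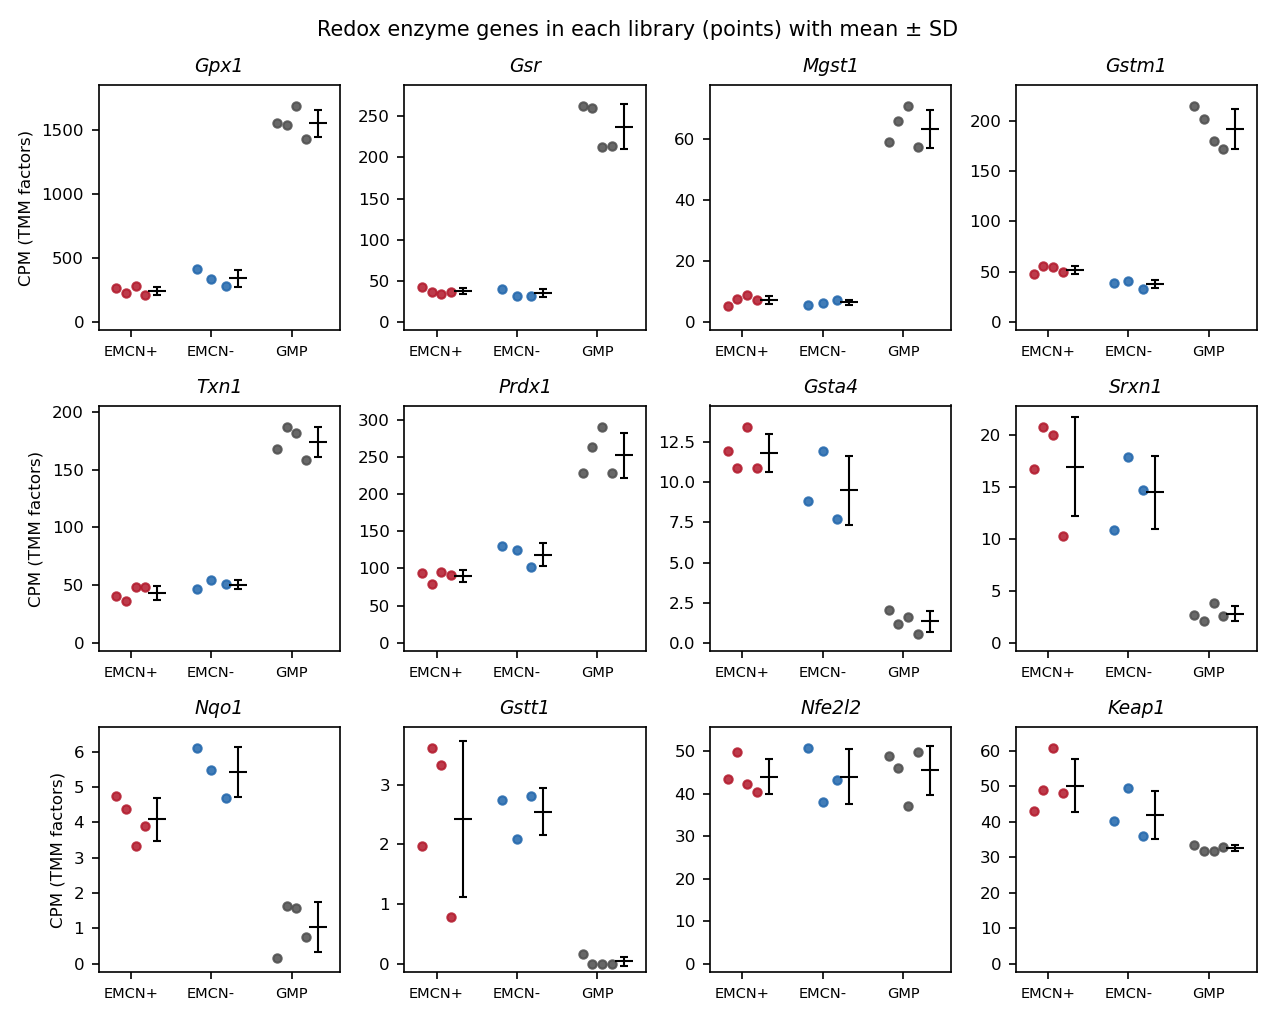
CPM in each library (points) with mean ± SD (black) for 12 of the genes in EMCN+ LT-HSCs (n = 4), EMCN- LT-HSCs (n = 3) and GMPs (n = 4), each panel on its own linear axis. Gpx1, Gsr, Mgst1, Gstm1, Txn1 and Prdx1 are highest in GMPs, Gsta4, Srxn1, Nqo1, Gstt1 and Keap1 are lowest there, and Nfe2l2 overlaps in all 3 populations; with total-count scaling Nfe2l2 is called higher in LT-HSCs.

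Peroxiredoxins reduce peroxides with a cysteine and are recharged by thioredoxin. Of the 6 peroxiredoxins, 4 were lower in LT-HSCs with TMM (Prdx1, Prdx2, Prdx3 and Prdx5), Prdx4 was higher and Prdx6 was not called. With total counts Prdx1 and Prdx5 were lower, and Prdx4 and Prdx6 higher. Prdx1, a cytosolic form with 29.9% of this group's CPM per kb in GMPs, measured 93.5, 78.4, 95.3 and 91.5 CPM in EMCN+, 129.9, 124 and 102 CPM in EMCN- and 228, 263, 289.9 and 228 CPM in GMP libraries. It was 2.49-fold lower in LT-HSCs (adjusted p = 1.35e-10) with no overlap. Prdx5, found in mitochondria, peroxisomes and cytosol, was 3.32-fold lower (30.0, 30.9 and 101 mean CPM in EMCN+, EMCN- and GMP, adjusted p = 2.41e-12).

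Prdx2, the cytosolic form abundant in red cells, and Prdx3, the mitochondrial form, were 1.51-fold and 1.80-fold lower with TMM (mean CPM 75.6, 95.5 and 126 for Prdx2, and 22.4, 30.3 and 46.0 for Prdx3). With total counts neither was called, and Prdx2 had a log2 change of 0.19. Prdx4, the form of the endoplasmic reticulum, was 1.42-fold higher (17.4, 19.8 and 13.1 mean CPM, adjusted p = 0.0153), with overlapping groups and an adjusted p of 0.073 without GMP library 1 and 0.0622 without GMP library 2. Prdx6, which reduces phospholipid peroxides with glutathione, measured 106, 107 and 121 mean CPM (adjusted p = 0.0702 with TMM).

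Srxn1, sulfiredoxin, which rescues peroxiredoxins that peroxide has over-oxidised, was higher in LT-HSCs. It measured 16.8, 20.8, 20.0 and 10.3 CPM in EMCN+, 10.8, 17.9 and 14.8 CPM in EMCN- and 2.68, 2.12, 3.86 and 2.61 CPM in GMP libraries. Every stem cell library lay above every progenitor library, and the difference was 5.73-fold (log2 change 2.52 ± 0.26, adjusted p = 2.93e-08).

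In the thioredoxin system, cytosolic thioredoxin and the reductases differed in opposite directions. Txn1, cytosolic thioredoxin, measured 40.4, 36.4, 48.1 and 48.1 CPM in EMCN+, 46.4, 53.9 and 50.6 CPM in EMCN- and 168, 187, 181.5 and 158 CPM in GMP libraries, 3.77-fold lower in LT-HSCs (adjusted p = 3.06e-13). Txnrd1, the cytosolic reductase, was 1.38-fold higher (119.9 ± 9.60, 108 ± 9.91 and 83.6 ± 12.6 CPM, mean ± SD in EMCN+, n = 4, EMCN-, n = 3, and GMP, n = 4, edgeR adjusted p = 4.54e-04). Its groups overlapped, with 96.97 CPM in EMCN- library 4 and 101.6 CPM in GMP library 1. The mitochondrial reductase Txnrd2 was 1.43-fold higher (11.4, 11.5 and 7.98 mean CPM, adjusted p = 0.0216). That call was lost with no low-count filter (adjusted p = 0.0522) and without EMCN- library 2 (0.0511) or GMP library 4 (0.0891). Mitochondrial thioredoxin, Txn2, was 1.55-fold lower with TMM (35.6, 39.9 and 57.8 mean CPM, adjusted p = 1.79e-05) and had a log2 change of 0.15 with total counts.

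As shares of the CPM per kb of these 4 genes, Txn1 took 49.4% in EMCN+ LT-HSCs (45.4 to 54.7%), 54.4% in EMCN- LT-HSCs (52.2 to 56.4%) and 81.4% in GMPs (78.3 to 83.3%), and Txnrd1 took 35.6%, 30.2% and 10.1%. No stem cell library reached the Txn1 share of any progenitor library.

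**Figure D4:**
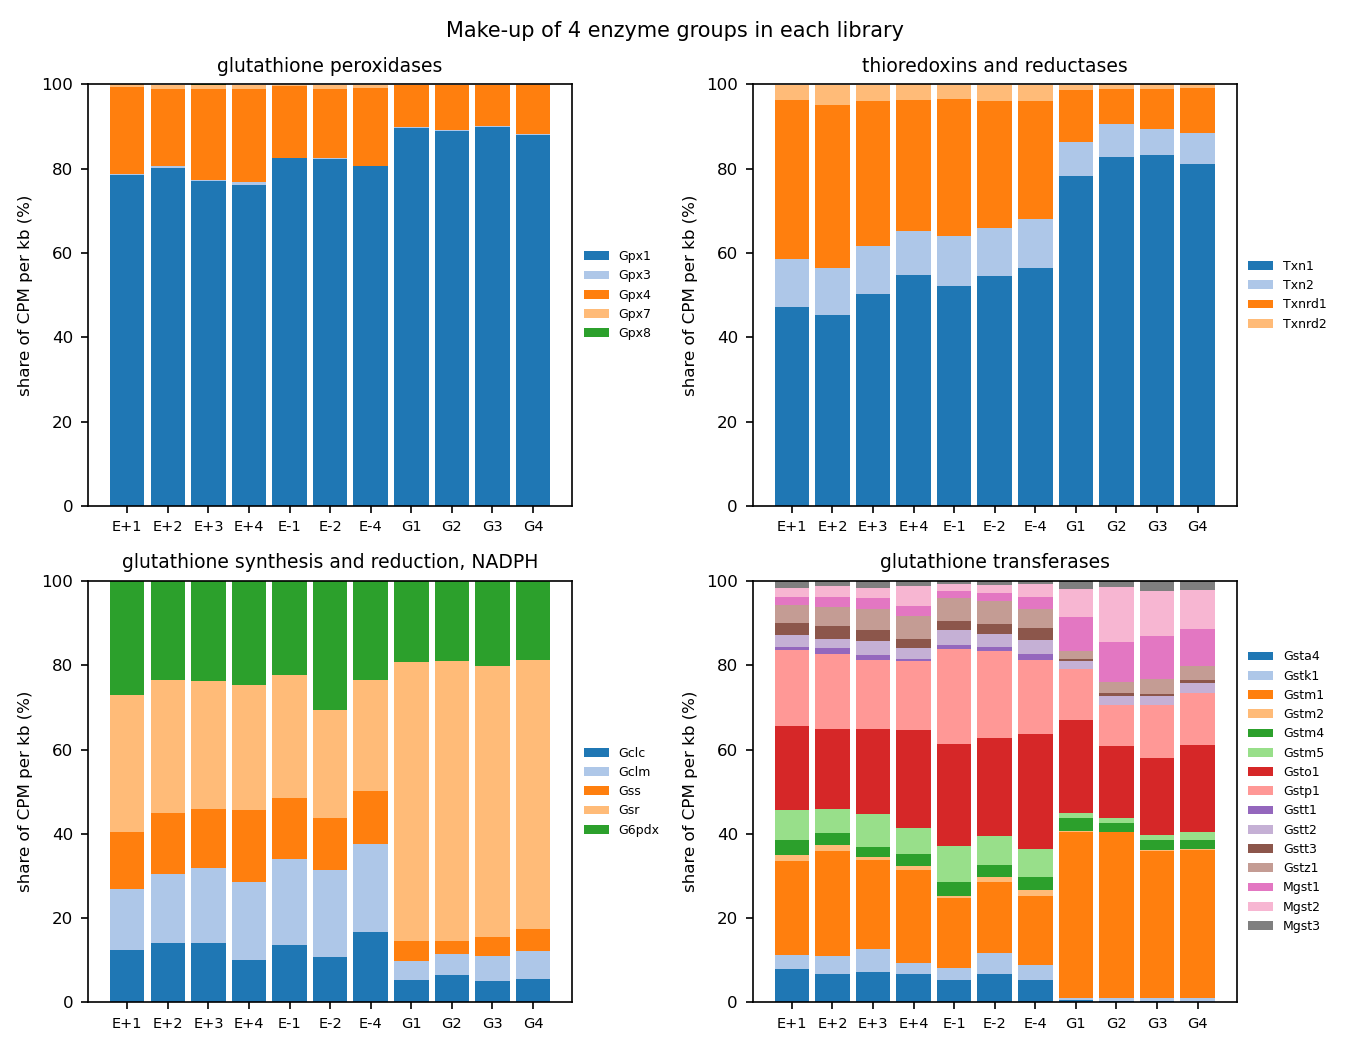
Share of each gene in the summed CPM per kb of its group (stacked bars, %) in each library, E+ for EMCN+ LT-HSCs, E- for EMCN- LT-HSCs and G for GMPs with the mouse number. Txn1, Gsr and Gstm1 take larger shares in the 4 GMP bars than in any of the 7 LT-HSC bars, and Txnrd1, Gclm and Gsta4 smaller ones; shares do not depend on scaling between libraries.

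Superoxide dismutases turn superoxide into hydrogen peroxide, which catalase breaks down. Sod1 measured 122, 112, 126 and 112 CPM in EMCN+, 118, 133 and 142 CPM in EMCN- and 175, 155, 159 and 159 CPM in GMP libraries. It was 1.31-fold lower in LT-HSCs with TMM (adjusted p = 3.23e-04) and was called higher with total counts (log2 change 0.39, adjusted p = 0.00214), so its direction depended on the scaling. Sod2, the mitochondrial form, was not called with TMM (46.99, 52.96 and 44.8 mean CPM in EMCN+, EMCN- and GMP) and was called higher in LT-HSCs with total counts (log2 change 0.93, adjusted p = 1.26e-06). Cat, peroxisomal catalase, was 1.64-fold higher in LT-HSCs (84.2 ± 4.99, 90.1 ± 9.69 and 53.0 ± 5.75 CPM, SD, n = 4, 3 and 4, edgeR adjusted p = 1.91e-06), with a log2 change of 0.71 with TMM and 1.49 with total counts. Per kb, Cat made up 14.4% and 14.0% of the 3 genes in the EMCN+ and EMCN- fractions and 7.21% in GMPs.

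Of 5 genes for synthesis and recycling of glutathione, 60% were called against GMPs with TMM, near the 62.5% of all tested genes. Gclc and Gclm are the catalytic and modifier subunits of the rate-limiting ligase, Gss adds glycine, Gsr regenerates the reduced form and G6pdx supplies NADPH from the pentose phosphate pathway. No gene of these 5 was higher in LT-HSCs with TMM and 3 were lower (Gsr, G6pdx and Gclc), by edgeR. DESeq2 called 0 higher and 2 lower, and 3 genes had an unadjusted p under 0.05 in edgeR. With total counts 3 were higher (Gclc, Gclm and Gss) and 2 lower (Gsr and G6pdx).

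Gsr measured 42.7, 36.8, 33.6 and 35.8 CPM in EMCN+, 40.1, 31.9 and 31.9 CPM in EMCN- and 262, 261, 213 and 214 CPM in GMP libraries, a 6.56-fold lower level in LT-HSCs (log2 change -2.71 ± 0.10) with the smallest adjusted p of the set (3.12e-15). G6pdx was 2.27-fold lower (29.5, 32.2 and 69.6 mean CPM, adjusted p = 7.93e-09). Gclc was at the threshold (19.5, 22.3 and 26.1 mean CPM, adjusted p = 0.0496) and kept its call in 9 of 19 alternatives, in 1 of which, total counts, it was called higher. Among the libraries left out in turn, its call was lost without any one of the 4 EMCN+ libraries or GMP libraries 1 or 2, with an adjusted p of up to 0.237.

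Gclm measured 39.8, 39.7, 41.4 and 46.4 CPM in EMCN+, 59.0, 53.6 and 52.7 CPM in EMCN- and 37.6, 41.9, 41.4 and 46.7 CPM in GMP libraries. GMP libraries thus overlapped EMCN+ LT-HSCs and lay below all EMCN- libraries, and the pooled LT-HSC comparison was not called with TMM (adjusted p = 0.145). Gss was not called with TMM either (13.0, 12.4 and 11.6 mean CPM, adjusted p = 0.537). Both were called higher in LT-HSCs with total counts, with log2 changes of 0.95 for Gclm (adjusted p = 1.57e-07) and 0.91 for Gss (1.66e-04). As shares of the CPM per kb of the 5 genes, Gsr took 31.03% (29.6 to 32.6%) in EMCN+ LT-HSCs, 27.0% (25.5 to 29.2%) in EMCN- LT-HSCs and 65.2% (63.9 to 66.3%) in GMPs. In the same order, Gclm took 16.8%, 20.7% and 5.57%.

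Glutaredoxins use glutathione to reduce protein disulfides or, in the monothiol forms, to carry iron-sulfur clusters. Of 4 genes, 3 were lower in LT-HSCs and none higher by edgeR with TMM, 3 had an unadjusted p under 0.05, and DESeq2 also called 3 lower and 0 higher. Glrx3, the monothiol form of the cytosol, measured 98.4, 78.9, 88.1 and 88.6 CPM in EMCN+, 118, 103 and 119 CPM in EMCN- and 213, 228, 218 and 273 CPM in GMP libraries, 2.36-fold lower in LT-HSCs (adjusted p = 1.65e-10). Glrx5, the mitochondrial monothiol form, was 2.40-fold lower (13.9, 16.5 and 36.1 mean CPM, adjusted p = 1.13e-08). Glrx, the cytosolic dithiol form, was 1.96-fold lower with TMM (26.3, 23.2 and 48.9 mean CPM) and not called with total counts. Glrx2 (23.4, 22.3 and 19.5 mean CPM) was not called with TMM and was called higher in LT-HSCs with total counts.

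Of the 2 regulators and 2 of their classic stress targets, 3 were higher in LT-HSCs with TMM (Keap1, Nqo1 and Hmox1), and all 4 with total counts. Nfe2l2, which encodes NRF2, measured 43.5, 49.9, 42.3 and 40.5 CPM in EMCN+, 50.8, 38.0 and 43.3 CPM in EMCN- and 49.0, 46.1, 37.3 and 49.9 CPM in GMP libraries, with full overlap. Its log2 change was -0.05 with TMM (adjusted p = 0.736) and 0.74 with total counts (adjusted p = 4.36e-05). Keap1, its inhibitor, measured 43.0, 48.8, 60.8 and 48.1 CPM in EMCN+, 40.3, 49.4 and 36.1 CPM in EMCN- and 33.5, 31.8, 31.8 and 32.96 CPM in GMP libraries, 1.43-fold higher in LT-HSCs (adjusted p = 6.22e-04) with no overlap.

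Nqo1, a quinone reductase, was low but higher in stem cells, at 4.74, 4.38, 3.33 and 3.90 CPM in EMCN+, 6.10, 5.47 and 4.68 CPM in EMCN- and 0.157, 1.63, 1.59 and 0.745 CPM in GMP libraries (4.54-fold, adjusted p = 2.41e-04). Hmox1, haem oxygenase 1, was 1.5-fold higher (9.49, 13.9 and 7.51 mean CPM, adjusted p = 0.0417), with overlapping groups. That call was lost without EMCN+ library 1, EMCN- libraries 1 or 2, or GMP libraries 1 or 4, with an adjusted p of up to 0.168. Textbook NRF2 targets among the members thus did not lie on one side, with Srxn1, Nqo1 and Txnrd1 higher and Gsr, Gstm1 and Prdx1 lower in LT-HSCs on both scales.

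The EMCN+ and EMCN- fractions were compared to ask whether endomucin divides LT-HSCs by their redox enzymes. Differences were small beside those against GMPs. Of the 46 genes, 1 was higher in EMCN+ LT-HSCs (Gstm1) and 0 lower by edgeR, or 2.17%, against 1.96% of all tested genes, 0.771% higher and 1.19% lower. An unadjusted p under 0.05 in edgeR was found for 8 of the 46 genes, against 2076 of 14915 tested genes. Of the 8, 2 had higher and 6 had lower levels in EMCN+ cells. DESeq2 called 1 of the 46 higher and 1 lower. Scaled by total counts the same single gene was called, against 1.08% of all genes higher and 0.335% lower. The share of members called was near that of all genes. In simulated data the fit recovered 34.3% of 1.5-fold and 58.2% of 2-fold changes between the fractions, so small differences can go uncalled.

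Gstm1 separated the fractions completely, from 47.5 to 56.0 CPM in EMCN+ and from 32.8 to 40.7 CPM in EMCN- libraries. It was 1.38-fold higher (log2 change 0.47 ± 0.12, adjusted p = 0.0463) and higher in 3 of 3 same-mouse pairs, by 0.30, 0.46 and 0.59 on the log2 scale in mice 1, 2 and 4. With mouse as a block the adjusted p was 0.024. The call was lost when any one of EMCN+ libraries 2, 3 or 4, EMCN- libraries 1, 2 or 4 or GMP libraries 2, 3 or 4 was left out, with an adjusted p of up to 0.18. Its share of transferase CPM per kb did not overlap between the fractions either.

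Gpx1 leaned the opposite way without a call, at 207 to 278 CPM in EMCN+ and 276 to 411 CPM in EMCN- libraries, which overlap only at EMCN+ library 3 and EMCN- library 4. Its log2 change was -0.49 ± 0.13 (adjusted p = 0.0586), with -0.66, -0.56 and -0.42 within mice 1, 2 and 4. Blocking by mouse gave an adjusted p of 0.00595, and DESeq2 gave 0.0272. Gclm, at 39.7 to 46.4 CPM in EMCN+ and 52.7 to 59.0 CPM in EMCN- libraries, did not overlap, with a log2 change of -0.40 ± 0.12 (adjusted p = 0.0908). Within mice it was -0.57, -0.43 and -0.18. Prdx1 did not overlap either (78.4 to 95.3 and 102 to 129.9 CPM, log2 change -0.41 ± 0.12, adjusted p = 0.0929, and 0.032 with mouse as a block).

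The same mouse gave both fractions for 3 of the 4 mice, so the paired values stand beside the unpaired ones. With mouse as a block on all libraries, 2 of the 46 genes were lower in EMCN+ cells (Gpx1 and Prdx1), against 1.60% of all genes, and Gstm1 was higher, against 0.905%. With the 6 libraries of complete pairs and the block, 6 genes were lower (Gpx1, Prdx1, Prdx2, Prdx3, Gclm and Glrx3), against 3.93% of 13435 genes tested, and Gstm1 was higher, against 2.83%. These 6 had adjusted p values of 0.0013 for Gpx1, 0.0142 for Prdx1, 0.0226 for Prdx2, 0.0298 for Prdx3, 0.0381 for Gclm and 0.0244 for Glrx3. Of these 6, 3 are peroxiredoxins, but the set was chosen by function, so functions that the 6 genes share come from the list.

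Across the set, levels were lower in EMCN+ cells in all 3 pairs for 16 of 46 genes (34.8%, against 20.2% of all genes) and higher in all 3 for 6 (13.0%, against 20.4%). Scaled by total counts these were 15 genes (32.6%, against 11.7% of all genes) and 10 genes (21.7%, against 27.9%). Groups that did not overlap numbered 6 lower (Gsto1, Prdx1, Prdx2, Prdx3, Gclm and Glrx3, against 7.03% of all genes) and 2 higher (Gstm1 and Mgst3, against 7.19%). The median log2 change of the 46 genes was -0.07 with TMM and 0.05 with total counts, where that of all genes was 0.11.

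Several genes could not be placed in this comparison. Gpx3 had the widest change, 1.63 ± 0.66 on the log2 scale (adjusted p = 0.252), from values of 0 to 2.34 CPM, and was called higher in EMCN+ cells only when EMCN- library 2 was left out (0.0327). Nfe2l2 had a log2 change of 0.00 (adjusted p = 0.995), Keap1 0.26 (0.432) and Hmox1 -0.55 (0.397). Of the genes without a call, 13 changed sign under at least 1 alternative, among them Gstm2, Prdx6 and Txnrd2.

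**Figure D5:**
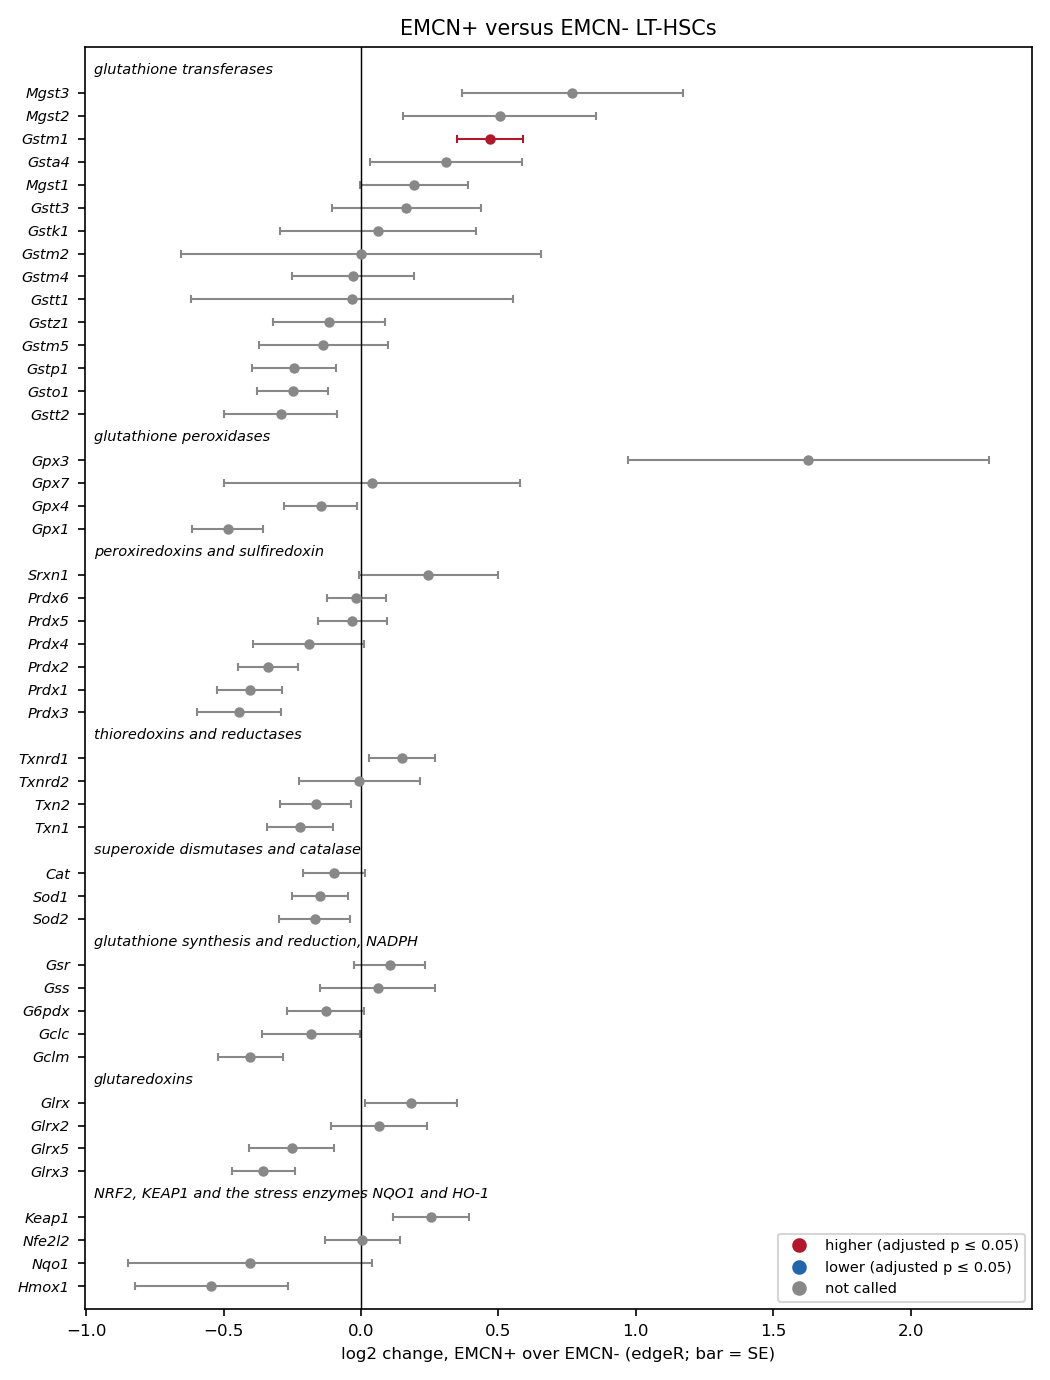
Log2 change of EMCN+ over EMCN- LT-HSCs for the 46 tested genes by role, with TMM scaling in the fit without a mouse block (points, bars are SE). Gstm1 (0.47) is the only coloured point, Gpx1 (-0.49), Prdx3 (-0.44) and Prdx1 (-0.41) lie to the left of zero and Gpx3 (1.63) farthest to the right; total-count scaling moves the median of all genes by 0.11 to the right.

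Markers of other cells moved with both comparisons. Against GMPs, 10 mature neutrophil markers summed to 3.00 to 5.43 CPM in EMCN+, 2.81 to 4.35 CPM in EMCN- and 131 to 545 CPM in GMP libraries, and 7 of 7 tested were lower in LT-HSCs. Mast cell and basophil markers summed to 0.556 to 1.58, 1.13 to 2.90 and 197 to 351 CPM, and 11 erythroid markers to 30.5 to 44.4, 32.4 to 38.7 and 121 to 199 CPM. Between the LT-HSC fractions, 12 endothelial markers, Emcn among them, summed to 387 to 523 CPM in EMCN+ and 277 to 309 CPM in EMCN- libraries, with 2 of 10 tested higher. In GMP libraries these endothelial markers summed to 72.8 to 91.3 CPM, with 9 of 10 tested higher and 1 lower in LT-HSCs. Erythroid sums overlapped between the fractions, with 2 of 10 tested lower in EMCN+ cells. Megakaryocyte and platelet markers summed to 342 to 441 CPM in EMCN+, 273 to 326 CPM in EMCN- and 30.5 to 44.5 CPM in GMP libraries, with 1 of 7 tested higher and 3 lower in EMCN+ than in EMCN- cells and 6 of 7 higher in LT-HSCs than in GMPs. T and NK cell markers summed to 8.62 to 10.6, 10.8 to 13.1 and 131 to 140 CPM, and B cell markers to 7.98 to 12.4, 6.56 to 14.2 and 20.3 to 31.4 CPM. Of 3 T and NK cell markers tested, 2 were higher and 1 lower in LT-HSCs than in GMPs. Between the fractions, 1 of the 3 was lower in EMCN+ cells. Cd3e, Cd3g and Ncr1 had 0 counts in all GMP libraries. Of the LT-HSC markers, 4 of 10 were higher in EMCN+ cells. The part of these cells in the redox differences was not tested.

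Genes of the same pathways outside the set were taken from 5 lists of 104 genes, of which 81 were tested. Against GMPs 26 were higher and 41 lower in LT-HSCs with TMM, where 32.5% and 29.9% of all genes were, and 41 were higher and 21 lower with total counts, where 60.8% and 12.8% were. The genes named below against GMPs kept their call on both scales. Between EMCN+ and EMCN- cells edgeR called 0 of 81, against 1.96% of all tested genes, and DESeq2 called 0 higher and 1 lower. An unadjusted p under 0.05 in edgeR was found for 15 of the 81, against 2076 of 14915 tested genes. The smallest adjusted p values in edgeR were those of Rpe (0.0908, 13.1 mean CPM in EMCN+ and 20.4 in EMCN- libraries) and Pgls (0.0929, 17.4 and 24.3), enzymes of the pentose phosphate pathway.

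Of 17 tested genes of NADPH supply, 11 were lower and 4 higher in LT-HSCs with TMM (median log2 change -1.04), and 7 were lower and 5 higher with total counts (median -0.26). Pgd and Idh1, which reduce NADP in the cytosol, had log2 changes of -1.93 and -2.14 (34.3, 34.5 and 131 mean CPM for Pgd, and 24.3, 26.8 and 112 for Idh1 in EMCN+, EMCN- and GMP). Aldh1l1, a folate enzyme that also makes NADPH, had a log2 change of 3.95 (22.8, 23.7 and 1.48 mean CPM). Malic enzyme, Me1, had 133 counts in LT-HSC and 2 in GMP libraries, a ratio of 26.6 with an exact 95% counting interval of 7.22 to 222.

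Of 24 other thiol and peroxide genes, 7 were higher and 14 lower with TMM, and 13 higher and 6 lower with total counts. Txnip, a protein that binds and inhibits thioredoxin, had the reverse pattern of Txn1. It measured 501, 545, 510.2 and 541 CPM in EMCN+, 364, 441 and 474 CPM in EMCN- and 50.1, 33.6, 42.9 and 45.1 CPM in GMP libraries, with a log2 change of 3.48 ± 0.12 (adjusted p = 1.98e-15). Msrb1, which repairs oxidised methionine with selenocysteine, had a log2 change of -3.38, and Msrb3, a methionine repair enzyme of the endoplasmic reticulum and mitochondria, 2.76.

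Of the other glutathione genes, 13 of 28 were tested, with 4 higher and 4 lower with TMM and 7 higher and 1 lower with total counts. Ggt5, a glutamyl transferase that processes glutathione conjugates outside the cell, had a log2 change of 2.96 (6.18, 9.58 and 0.961 mean CPM in EMCN+, EMCN- and GMP), and Hagh, a glyoxalase that frees glutathione, -1.63 (3.41, 2.62 and 9.57). Among regulators of NRF2, 9 of 15 were higher and 3 lower in LT-HSCs with TMM (median log2 change 0.37), and 12 higher and 1 lower with total counts. Bach2, a repressor of the same element, had a log2 change of 3.42 (24.2, 16.1 and 1.96 mean CPM) and its relative Bach1 0.86 (80.7, 86.0 and 45.7). Maff, a small MAF protein, had 273 counts in LT-HSC and 3 in GMP libraries (ratio 36.4, exact 95% counting interval 12.3 to 178).

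Of 12 tested genes for sources of oxidants, 9 were lower and 2 higher in LT-HSCs with TMM, and 6 lower and 4 higher with total counts. Mpo, myeloperoxidase, had 0.977, 3.83 and 11420 mean CPM in EMCN+, EMCN- and GMP libraries. Cybb, the catalytic subunit of the phagocyte NADPH oxidase, had a log2 change of -5.91 (0.734, 0.693 and 42.8 mean CPM). Noxa1, an activator of NADPH oxidase 1, was higher on both scales, at 1.59 and 0.834 mean CPM in the LT-HSC fractions and 0 counts in all 4 GMP libraries. Set against 3 counts over the GMP group it was at least 9.86-fold higher in LT-HSCs, and the exact 95% counting interval of the ratio begins at 7.82.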

How the data were processed

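Strand-specific total RNA libraries of sorted bone marrow cells were made and sequenced in read pairs by the authors, per the labels' protocols. The authors deposited a table of estimated counts for each gene, for which the submitters' processing notes name cutadapt and Salmon. Versions, annotation, genome build, strand setting and the step from transcripts to genes are not given in the sources used here. Estimated counts were rounded to whole numbers as a safeguard. No column was left without a sample. Members were matched by symbol, and lengths, positions and shared 31-base stretches came from GENCODE M21 on GRCm38 (54094 of 54347 identifiers matched without version, 53307 with it).

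A single model of all 11 libraries was fitted in R 4.3.3 with edgeR 4.0.16 (TMM factors, filterByExpr at a minimum count of 10, robust quasi-likelihood, no block). The Benjamini-Hochberg adjustment ran over 14915 genes, which hold 99.7% of the counts, with a threshold of 0.05. Contrasts were EMCN+ against EMCN- LT-HSCs and the 7 LT-HSC libraries, weighted equally, against GMPs. CPM are counts divided by the total times the TMM factor. Shares and levels per length use CPM per kb of merged exons. A group with 1 to 3 counts is given as a ratio with an exact 95% interval, and a fold against a group at 0 is a bound, computed with 3 counts for that group. In single libraries 3 counts, the most that a count of 0 allows, equal 0.209 to 0.703 CPM. Intervals and floors cover counting error only, since reads carried no molecular identifiers in the counting as described. Figures were drawn with matplotlib 3.10.9.

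Replicates within a sorted population are separate mice, and libraries of a group differed beyond sampling (chi-square per degree of freedom 8.41 to 34.9 over 15 pairs). The 7 LT-HSC libraries came from 4 mice, 3 of which gave both fractions, and the main fit counted these libraries as independent. The labels give the mouse, which pairs the populations. Deviations from the group means correlated at 0.198 on average between EMCN+ and EMCN- libraries of the same mouse (0.165 to 0.223, 3 pairs) and at -0.0657 between different mice (-0.246 to 0.19, 9 pairs). Same-mouse means were 0.133 for GMP with EMCN- and 0.0253 for GMP with EMCN+ libraries. Blocked values are therefore given where they change a call.

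Of the 47 genes, 20 shared no 31-base stretch with another gene and 9 shared more than 10%, so that Salmon's split of reads affects Gpx4, Gstp1, Gstm1, Sod2, Glrx3, Prdx1, Gstt3, G6pdx and Gstm2 most. A gene on the opposite strand overlaps 13 of the 47 (G6pdx, Gclm, Gpx8, Gss, Gstm5, Gsto1, Gstz1, Keap1, Prdx2, Prdx5, Sod1, Txnrd1 and Txnrd2), and their counts are uncertain to that extent.

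The members, lists and tests were chosen with earlier results of these data known. Every member could be named. Values in every library were given for the members with the smallest p between the LT-HSC fractions, up to 8 called per direction with the largest change against GMPs, Nfe2l2, Keap1 and the most abundant member of each role per length. From each pathway list up to 4 called genes with the largest change, or 2 with the smallest p, could be named, and Pgd and Bach1 were added after their values were seen. Alternatives were RLE factors, total counts, no low-count filter, at least 5 CPM in 3 libraries, DESeq2 1.42.0, mouse as a block, the 6 libraries of complete pairs with the block, the 7 LT-HSC libraries alone, equal weights for the fractions, protein-coding genes alone and each of the 11 libraries left out in turn. The fit was tested on simulated data first. For EMCN+ against EMCN- LT-HSCs it recovered 34.3% of simulated 1.5-fold changes, 58.2% of 2-fold and 89.4% of 4-fold changes.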

Additional observations from a re-analysis of the deposited data

Results flagged for a closer look

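Gstt1 had 0.157 CPM in GMP library 1, which is 1 count, while the other 3 GMP libraries had 0. The library stood apart from the others of its group by Dixon's criterion at the 95% level. It was the only one among 92 groups of 4 libraries examined, where chance flags about 1 in 20 groups, and a single count is within the sampling of a count of 0.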

How the results depend on the processing

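Scaling by total counts alone changed the most results against GMPs. It gave 24 members higher and 14 lower in LT-HSCs, and 9063 genes higher and 1907 lower in all. Its log2 changes reversed sign for Sod1 (0.39), Gclc (0.46), Gstp1 (0.27), Gstt2 (0.047), Gstz1 (0.40), Prdx2 (0.19), Prdx6 (0.59), Txn2 (0.15) and Nfe2l2 (0.74), since this scaling raises every LT-HSC value relative to GMPs. Under RLE factors, DESeq2, the other filters, the block, equal weights and protein-coding genes alone, the counts of members higher and lower against GMPs stayed within 1.5 times of 15 and 24, and without any one library they were 12 to 15 and 23 to 25. Single members gained or lost a call in at least 1 alternative for 21 genes against GMPs. Between EMCN+ and EMCN- cells, where 1 member was called higher and 0 lower, members called lower numbered 1 with no filter, 1 with the 5 CPM filter, 1 with DESeq2, 2 with mouse as a replicate block, 6 with the 6 paired libraries and the block, 2 with protein-coding genes alone and 0 to 1 without any one library. Members called higher were 0 with the 7 LT-HSC libraries alone and 0 to 1 without any one library. Over all genes, 115 were called higher and 178 lower. The calls higher were 236 with no filter, 203 with DESeq2, 380 with the paired libraries and the block, 189 with protein-coding genes alone and 26 to 123 without any one library. The calls lower were 50 with total counts, 293 with no filter, 528 with the paired libraries and the block, 118 with the 7 LT-HSC libraries alone, 276 with protein-coding genes alone and 29 to 221 without any one library. Leaving out EMCN- library 1 gave the lowest counts (26 and 29), with EMCN+ library 2 next (47 and 58). Without EMCN- library 2 or 4, 69 and 72 genes were called higher, and without EMCN+ library 4, 99 lower. The cause was not tested. The mouse block changed no other member's call than those given with the results. Depth limits Gstt1, Gpx8, Gpx3, Gpx7, Gstm2, Gsta4 and Nqo1, which have libraries of under 1 CPM where a single count is worth up to 0.234 CPM.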

Other observations

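Some related enzymes outside the 47 genes were near or at the limit of detection. Gsta1 and Gsta2, alpha-class transferases abundant in liver, and Gpx5, Gpx6 and the extracellular dismutase Sod3 had 0 counts in all 11 libraries. Gsta3 had 15 counts in the LT-HSC and 0 in the GMP libraries, and Gstp3 had 0 and 13. Gpx2, the gastrointestinal peroxidase, had 11 counts in EMCN+ libraries and 0 in the others. Of the alpha-class transferases examined, Gsta4 alone passed the low-count filter.

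Nnt, a mitochondrial enzyme that makes NADPH, was the pathway gene singled out after its values were seen, because its libraries scattered within each population. It measured 26.8, 16.1, 6.55 and 60.6 CPM in EMCN+ libraries 1 to 4, 40.1, 49.8 and 12.7 CPM in EMCN- libraries 1, 2 and 4, and 44.6, 49.7, 81.3 and 83.1 CPM in GMP libraries 1 to 4. Within mouse 4 the values ran from 12.7 to 83.1 CPM. Its log2 change against GMPs was -1.12 ± 0.56 (edgeR adjusted p = 0.118).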
